A study of Mus musculus with 12 samples.

Results

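The miR-26 family and the pair miR-103 and miR-107 were followed through 12 small RNA libraries from the prefrontal cortex (PFC) of mice. Members were the mature miRNAs mmu-miR-26a-5p, mmu-miR-26b-5p, mmu-miR-103-3p and mmu-miR-107-3p, found by name in the deposited tables. All 4 were present in every library, out of 1374 mature miRNAs listed, and all 4 passed the filter on low counts (at least 5 counts in at least 3 libraries), as did 746 of the 1374. The mice were adult male C57BL/6 animals in a conditioned place preference (CPP) experiment, which tests whether an animal seeks a place where it received a drug. SS mice received saline and saline, CS mice cocaine (20 mg/kg) and saline, MS mice l-methionine (1 g/kg, given 2 times a day for 10 days according to the labels, with another dose in a legend of the study) and saline, and MC mice l-methionine and cocaine. Each group had 3 libraries, each made from RNA pooled from 2 animals, with tissue taken 2 h after the CPP test. Pooling hides the difference between the 2 animals of a pool, so p-values measure the spread between pools. Titles give the libraries numbers that are used here as names (SS replicate 12, for example), and no number is shared between groups.

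A miRNA is cut from a hairpin transcript. Of its 2 strands, one (the guide) is usually kept by an Argonaute protein and guides it to messenger RNAs that pair with the seed, bases 2 to 8 of the miRNA, while the other strand (the passenger) is usually degraded. The miR-26 hairpins lie in introns of the Ctdsp genes, which encode small phosphatases of the C-terminal domain of RNA polymerase II and take part in silencing neuronal genes outside neurons. The miR-103 and miR-107 hairpins lie in introns of the Pank genes, which encode pantothenate kinases, the enzymes of the first step of coenzyme A synthesis. miR-103 and miR-107 are known as regulators of lipid and insulin metabolism, and miR-26 has been studied in growth control and in neural differentiation.

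The mature sequences below (RefSeq, build GRCm38.p6, 5′ to 3′, seed in capitals) are shown because members of a pair have the same seed and can be told apart in sequencing only by a few bases outside it.
miR-26a-5p: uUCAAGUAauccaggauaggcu
miR-26b-5p: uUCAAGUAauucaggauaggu
miR-103-3p: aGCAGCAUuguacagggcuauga
miR-107-3p: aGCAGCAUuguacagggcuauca

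Counted from 1 at the 5′ end, miR-26b-5p differs from miR-26a-5p by C11U and C21U and is 21 bases long against 22. miR-107-3p differs from miR-103-3p by the single change G22C over 23 bases, so a read that ends before base 22 fits both. How the authors assigned such reads is not given in the sources used here, and its part in the values of miR-103-3p and miR-107-3p was not tested. Among 1679 mouse mature miRNAs of the RefSeq table, the seed UCAAGUA was found in 2 (miR-26a-5p and miR-26b-5p) and the seed GCAGCAU in 2 (miR-103-3p and miR-107-3p).

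The files were made on mm10, the same assembly as GRCm38, and hairpin positions were read from RefSeq and hosts from GENCODE M21. Identical miR-26a-5p comes from Mir26a-1 (chr9:119031796-119031885, plus strand, intron 5 of Ctdspl) and from Mir26a-2 (chr10:126995530-126995613, plus strand, intron 5 of Ctdsp2). miR-26b-5p comes from Mir26b (chr1:74394310-74394394, plus strand, intron 4 of Ctdsp1). Identical miR-103-3p comes from Mir103-1 (chr11:35782396-35782481, plus strand, intron 5 of Pank3) and Mir103-2 (chr2:131288052-131288137, plus strand, intron 5 of Pank2). miR-107-3p comes from Mir107 (chr19:34820687-34820773, minus strand, intron 5 of Pank1). All 6 hairpins lie on the strand of their host, and within an intron of every protein-coding transcript that spans them. The counts of miR-26a-5p and miR-103-3p therefore each sum over a pair of genes and cannot be split between hosts by the mature sequence.

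Libraries held between 7.77 and 11.1 times 1000000 counts, of which 56.1 to 67.9% were miRNAs, and values are given as counts per 1000000 of the library total (CPM). The 12 libraries were split into 3 sets by clustering the profile of 123 precursor families that leave out those of the members. The number of sets was fixed in the clustering and not found from the data. Set A was made up of SS replicate 12 with CS replicates 8 and 9, and set C of CS replicate 10 with MC replicates 16 and 17. Set B took the other 6, among them all 3 MS libraries. These sets were found in the counts, and what they are is not given. MC replicate 16 stood apart, with the lowest miRNA share (56.1%), the highest share of counts on exons (16.1%) and the lowest scaling factor (0.675 by the TMM method, which corrects for differences in composition). miR-124-3p and the other 4 neuronal marker miRNAs were present in all libraries, at a summed 106477 to 271138 CPM. In bulk tissue, fewer cells of a type and less RNA per cell cannot be told apart.

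The 4 members covered a wide range of abundance. miR-26a-5p was the fourth most abundant mature miRNA, with a mean of 36826 CPM ± 7749 (SD, n = 12), and made up 3.03 to 7.21% of all mature miRNA counts of a library. Next came miR-26b-5p with 1320 CPM ± 303 (rank 64 of 1374) and miR-103-3p with 1090 CPM ± 305 (rank 67). The lowest level was that of miR-107-3p, 7.76 CPM ± 2.41 (rank 362), which rests on 33 to 115 reads a library. CPM was not scaled by length, since the mature sequences are 21 to 23 bases long. Every library had the order miR-26a-5p first and miR-107-3p last. miR-26b-5p lay above miR-103-3p in 9 of 12 libraries, with a ratio within a library of 0.724 to 1.70 (median 1.29). The difference between these neighbours was not tested. Over all 12 libraries the coefficient of variation was 21.0% for miR-26a-5p, 22.9% for miR-26b-5p, 28.0% for miR-103-3p and 31.1% for miR-107-3p, beside a median of 27.1% over the 68 mature miRNAs with a mean of at least 1000 CPM and 34.3% over the 394 with at least 5 CPM.

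**Figure D1:**
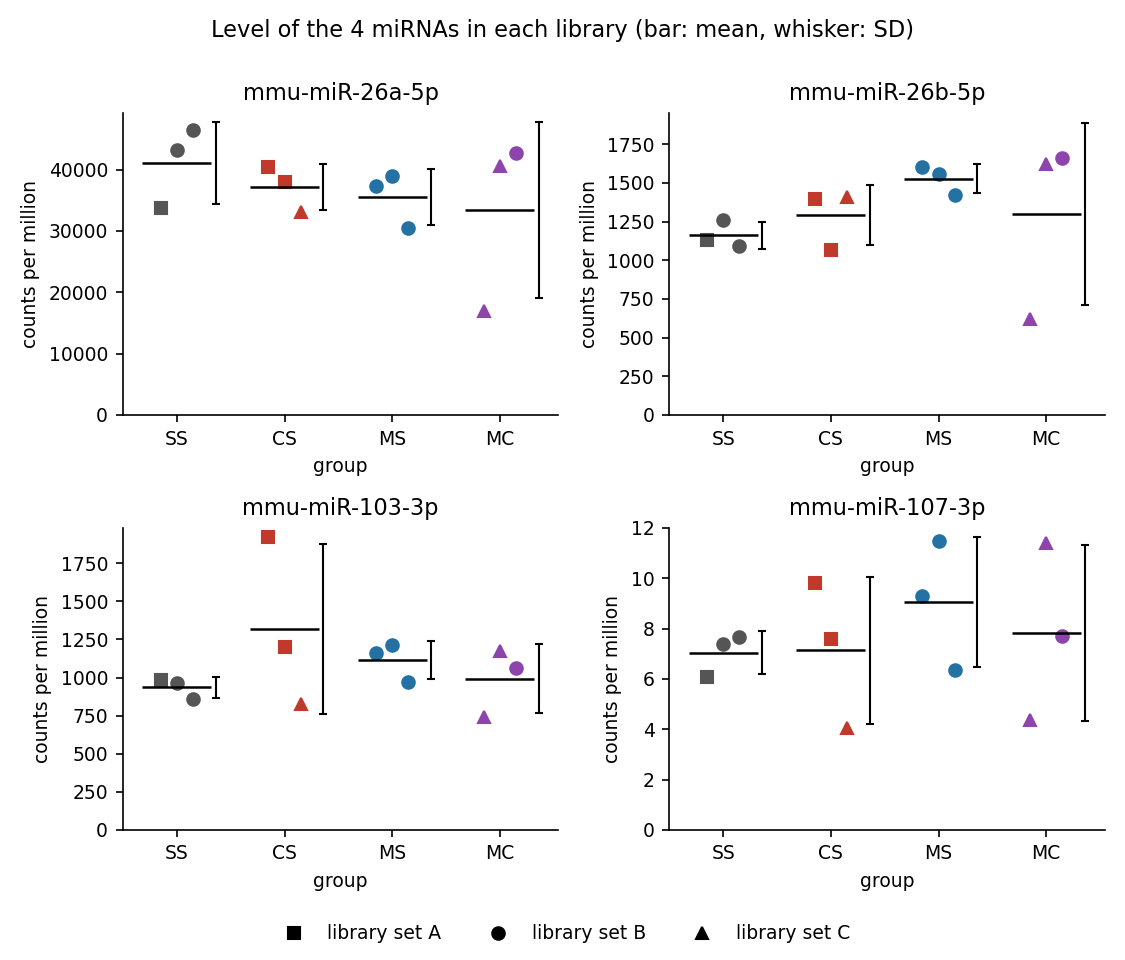
Level of each miRNA in CPM (y axis, from 0) by group (x axis). Each point is a library, its shape the library set, the bar the mean and the whisker the SD of 3 libraries. MC replicate 16, the lowest MC triangle, has the lowest miR-26a-5p (16980) and miR-26b-5p (622) of all 12 libraries.

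miR-26a-5p was at 33664, 43284 and 46389 CPM in SS replicates 12, 13 and 14. In CS replicates 8, 9 and 10 it was at 40476, 37948 and 33133 CPM, and in MS replicates 3, 4 and 23 at 37355, 38952 and 30405 CPM. In MC replicates 16, 17 and 20 it was at 16980, 40568 and 42761 CPM. The groups overlapped, and MC replicate 16 was the lowest library. With library composition taken into account (TMM-scaled CPM), SS libraries were at 37170, 52385 and 48003. They lay above all 3 CS libraries (32061, 36398 and 35262), all 3 MS libraries (36495, 32775 and 30774) and all 3 MC libraries (25162, 34615 and 36356). The miRNAs in which all CS libraries lay lower than SS on this scale were 5.38% of the 780 tested, and those in which all MS libraries lay lower were 10.6%. The share for MC against SS was not computed.

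miR-26b-5p was at 1131, 1259 and 1093 CPM in the SS libraries. CS libraries had 1395, 1066 and 1408 CPM, MS libraries 1600, 1558 and 1420 CPM, and MC libraries 622, 1625 and 1658 CPM, in the order of replicates given for miR-26a-5p. On the CPM scale all 3 MS libraries were above all 3 SS libraries, as they were for 18.7% of the 780 miRNAs. On the TMM scale the same groups overlapped, with SS at 1249, 1523 and 1131 and MS at 1563, 1311 and 1437.

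miR-103-3p was at 981, 966 and 859 CPM in SS and at 1925, 1198 and 828 CPM in CS. MS libraries had 1161, 1212 and 972 CPM and MC libraries 740, 1174 and 1064 CPM. The CS group spread widest: CS replicate 8 was the highest of all 12 libraries and CS replicate 10 the second lowest. miR-107-3p, by its few reads, was at 6.08, 7.37 and 7.67 CPM in the SS libraries and 9.80, 7.58 and 4.03 CPM in the CS libraries. MS libraries had 9.30, 11.5 and 6.35 CPM and MC libraries 4.38, 11.4 and 7.70 CPM. All 4 groups overlapped for miR-107-3p.

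No member passed the test in any comparison. Differences were tested on counts with edgeR (quasi-likelihood F-test on all 12 libraries, Benjamini-Hochberg adjustment over 780 mature and predicted miRNAs, with 0.05 as the largest adjusted p of a call). The comparisons asked what cocaine changed without (CS vs SS) and with methionine (MC vs MS), what methionine changed without (MS vs SS) and with cocaine (MC vs CS), whether the effects depended on each other (interaction), and whether the 4 groups differed at all. In each of these 6 comparisons 0 of the 4 members were called, and the background was 0%, since 0 of the 780 miRNAs were called. At an unadjusted p under 0.05 there were 22 miRNAs in CS vs SS, 75 in MS vs SS, 58 in MC vs CS, 65 in MC vs MS, 34 for the interaction and 59 for any difference, of which 1 was a member (miR-26a-5p in MS vs SS). DESeq2 called 19 miRNAs in MS vs SS and 12 for any difference, no member among them, and 0 in the other comparisons.

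On the TMM scale, miR-26a-5p had the widest pairwise differences among the members, whereas without TMM factors miR-103-3p had them (0.49 in CS vs SS). Against SS the log2 fold change of miR-26a-5p was -0.46 in MS (SE 0.19, 95% interval -0.88 to -0.04, unadjusted p = 0.0361 and adjusted p = 0.492 by edgeR). In CS it was -0.41 (SE 0.19, -0.83 to 0.02, adjusted p = 0.994 by edgeR). These 2 comparisons share the SS libraries. Without TMM factors the same differences were -0.21 and -0.14, while the median of all 780 miRNAs moved up by 0.25 and 0.27. Relative to that median miR-26a-5p stood at -0.43 (TMM) and -0.42 (no TMM) in MS, and at -0.44 and -0.45 in CS. With library set in the model, the difference was -0.155 in CS vs SS and -0.578 in MS vs SS. In the comparisons with MC it was -0.11 in MC vs CS (-0.53 to 0.31) and -0.06 in MC vs MS (-0.48 to 0.37), with an interaction of 0.35 (-0.25 to 0.95), or 0.056 without TMM factors. Without MC replicate 16 the last pair of pairwise values was 0.062 and 0.085.

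For miR-26b-5p the log2 fold changes ran from -0.21 in MC vs MS (95% interval -0.74 to 0.31) to 0.14 in MS vs SS (-0.38 to 0.67). For miR-103-3p they ran from -0.24 in MC vs CS (-0.75 to 0.27) to 0.18 in CS vs SS (-0.33 to 0.69), the latter turning to -0.045 without CS replicate 8. Without TMM factors these 2 values of miR-103-3p were -0.41 and 0.49, and relative to the median of all miRNAs they were -0.40 and 0.19. For miR-107-3p they ran from -0.28 in CS vs SS (-0.98 to 0.41) to 0.24 in MC vs CS (-0.46 to 0.93). The pairwise intervals reach as far as -0.98 on the log2 scale, and values within an interval are not excluded by these libraries. Some of these small values changed sign without TMM factors, miR-26b-5p in CS vs SS among them (from -0.11 to 0.15). Over the 4 members the median log2 fold change was -0.20 in CS vs SS, 0.05 in MS vs SS, -0.04 in MC vs CS and -0.10 in MC vs MS, beside 0.03, -0.03, 0.08 and 0.05 over all 780.

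**Figure D2:**
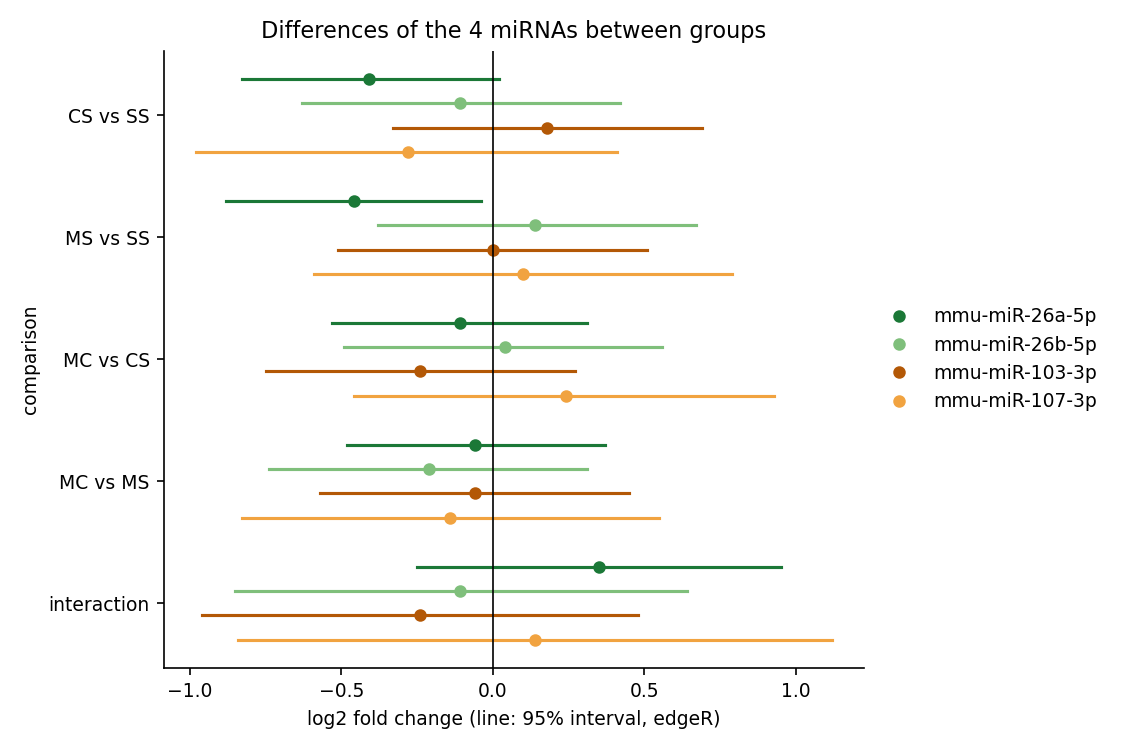
Log2 fold change of each miRNA (x axis; points, with lines for the 95% interval from edgeR) in the 4 pairwise comparisons and the interaction of cocaine and methionine (y axis). The interval of miR-26a-5p in MS vs SS (-0.88 to -0.04) is the one that leaves out 0, and its adjusted p was 0.492.

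Within the miR-26 pair, counts were divided very unequally, with miR-26b-5p at 2.30 to 4.46% of the sum. The share of miR-26b-5p in the sum of both miRNAs needs no scaling between libraries. It was 3.25, 2.83 and 2.30% in SS replicates 12, 13 and 14, 3.33, 2.73 and 4.08% in CS replicates 8, 9 and 10, 4.11, 3.85 and 4.46% in MS replicates 3, 4 and 23, and 3.54, 3.85 and 3.73% in MC replicates 16, 17 and 20. Each rests on at least 4834 reads of miR-26b-5p, and the exact (Clopper-Pearson) 95% intervals, which cover counting error only, were narrow (2.26 to 2.34% for the lowest share and 4.39 to 4.53% for the highest). All 3 MS and all 3 MC libraries lay above all 3 SS libraries, and CS overlapped both. Group means were 2.79% ± 0.475 (SS), 3.38% ± 0.673 (CS), 4.14% ± 0.309 (MS) and 3.71% ± 0.160 (MC; SD, n = 3 each).

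An exact permutation test of the F statistic over all 369600 arrangements of the libraries into 4 groups gave p = 0.0372 for this share, and 0.112 after Benjamini-Hochberg adjustment over the 3 ratios of the design, so it did not pass. MS against SS alone gave p = 0.100 (two-sided exact permutation test), the smallest that 3 against 3 libraries allow. With labels exchanged only within the library sets (540 arrangements) p was 0.0778 by the exact permutation test. Inside set B, the 2 SS libraries had 2.83 and 2.30% and the 3 MS libraries 3.85 to 4.46%. Marker lists of other cells were compared as summed CPM, unscaled, and no marker was called by edgeR. The 4 red blood cell markers summed to 1496 to 2221 CPM in SS and 2396 to 2677 CPM in CS. They summed to 2560 to 3973 CPM in MS and 387 to 3596 CPM in MC, so CS and MS both lay above SS. This sum was nearly all miR-451a. Like it, miR-144-3p and miR-144-5p were higher in every MS than in every SS library. miR-144-5p had few reads, with at most 0.486 CPM in SS, where 3 reads are 0.271 to 0.386 CPM. On CPM all MS libraries lay above SS for 18.7% of the 780 miRNAs, and all CS libraries for 12.3%. miR-486a-5p overlapped (3.43 to 16.9 CPM in SS, 1.40 to 11.4 CPM in MS). The liver marker miR-122-5p was at 11.2 to 58.8 CPM in SS and 9.04 to 14.4 CPM in CS. It was at 69.4 to 2494 CPM in MS and 9.91 to 140 CPM in MC. The 3 muscle markers summed to 27.0 to 32.1 CPM in SS and 29.1 to 43.0 CPM in CS, which overlapped. The sum lay above SS in MS (35.0 to 87.4 CPM) and MC (42.9 to 64.2 CPM). This sum was nearly all miR-133a-3p (24.8 to 29.4 CPM in SS, 33.0 to 82.3 CPM in MS, 39.3 to 59.7 CPM in MC). miR-1a-3p and miR-206-3p overlapped between SS and both of these groups. The 4 endothelial and vessel wall markers overlapped, with 9742 to 10977 CPM in SS and 10297 to 12463 CPM in CS. MS libraries had 10848 to 14317 CPM and MC libraries 3787 to 12039 CPM. The oligodendrocyte, leukocyte and choroid plexus sums overlapped between SS and each other group. The 5 neuronal markers summed to 178548 to 271138 CPM in SS, 138330 to 244037 CPM in CS and 123597 to 253912 CPM in MS. In MC the sum lay below SS (106477 to 145682 CPM). The markers did not move together. In MC miR-124-3p was lower than in SS (33187 to 46349 beside 70274 to 176336 CPM). It was as low in CS replicate 8 (30002 CPM) and MS replicate 4 (35552 CPM). The other CS and MS libraries were at 148929 to 171607 CPM. miR-138-5p was higher in MC (21923 to 27770 beside 16790 to 20373 CPM), as was miR-129-5p (1695 to 3841 beside 1411 to 1588 CPM). miR-9-5p and miR-128-3p overlapped. The share of all miRNAs without overlap between MC and SS was not computed. All markers of these lists had counts in each group, and their part in the share was not tested. Without SS replicate 13 or 14, CS replicate 8, MS replicate 3 or 23, or any of the 3 MC libraries, the 4-group p of the share of miR-26b-5p was 0.0545 to 0.105, and without CS replicate 10 it was 0.00870 (exact permutation tests).

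Within the other pair miR-107-3p took less than 1% of the counts in every library, with 0.616, 0.757 and 0.885% among SS, 0.506, 0.629 and 0.485% among CS, 0.795, 0.939 and 0.649% among MS and 0.588, 0.963 and 0.718% among MC libraries. Reads of miR-103-3p were at a median of 146 times, and at most 205 times, those of miR-107-3p. The CS shares were the lowest group on average (0.540% ± 0.0776 against 0.753% ± 0.135 in SS; SD, n = 3 each) but overlapped with those of SS, and the 4 groups gave p = 0.205 by the exact permutation test (0.305 adjusted over 3 ratios). The exact 95% intervals of the lowest and the highest library, 0.334 to 0.680% for CS replicate 10 and 0.776 to 1.18% for MC replicate 17, did not overlap. The ratio of the miR-26 sum to the miR-103 and miR-107 sum was 5.48 ± 0.32 for SS, 4.94 ± 0.47 for CS, 5.04 ± 0.02 for MS and 5.03 ± 0.42 for MC on the log2 scale (SD, n = 3), and the groups gave p = 0.305 by the exact permutation test (0.305 adjusted).

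Among the other strands of the 6 hairpins, miR-107-5p had the most reads relative to its partner strand. The 5p strands of miR-103 and miR-107 (seed in capitals) and the Mir107 and Mir103-2 hairpins (mature strands in capitals) are shown because strand counts are read from them.
miR-107-5p: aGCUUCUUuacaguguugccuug
miR-103-1-5p: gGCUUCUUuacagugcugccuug
miR-103-2-5p: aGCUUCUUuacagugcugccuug
Mir107: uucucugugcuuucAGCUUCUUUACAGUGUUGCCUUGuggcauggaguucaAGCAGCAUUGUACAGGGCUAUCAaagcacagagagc
Mir103-2: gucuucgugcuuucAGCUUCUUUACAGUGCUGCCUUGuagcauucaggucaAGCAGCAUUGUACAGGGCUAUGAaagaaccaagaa

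On the 5p strand, miR-107-5p differs from miR-103-2-5p by C16U and from miR-103-1-5p by G1A and C16U, and the change at base 16 lies inside the strand, whereas G22C of the 3p strands lies at the end. Its counts were close to those of miR-107-3p, at 62, 82 and 72 reads in the SS libraries beside 50, 74 and 85 of miR-107-3p. CS libraries had 132, 81 and 70 reads beside 83, 66 and 33, and MS libraries 127, 122 and 86 beside 102, 115 and 66. MC libraries had 36, 94 and 140 reads beside 34, 91 and 84. miR-107-5p was above miR-107-3p in 11 of 12 libraries. As a share of both strands miR-107-5p was 45.9 to 68.0%, and in 3 libraries the exact 95% interval lay above 50% and in 0 below it. In contrast, the 2 miR-103 5p strands together had 3 to 16 reads a library and were 0.0372 to 0.171% of miR-103 reads. Over all libraries miR-103-3p had 139 times the reads of miR-107-3p, whereas miR-107-5p had 12.1 times the reads of both miR-103 5p strands.

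The 3p strands of the miR-26 hairpins were also rare. miR-26a-1-3p had 7 to 34 reads and miR-26a-2-3p 11 to 38 reads a library. These strands differ between the 2 hairpins, unlike miR-26a-5p, and their ranges of counts overlapped, with miR-26a-1-3p at 38.7 to 60.0% of both. miR-26a-5p had 5623 to 14019 times the reads of its 2 passenger strands together. miR-26b-3p had 9 to 43 reads, or 0.0969 to 0.305% of miR-26b reads. Of the 6 strands, 0 were called in any comparison by edgeR (background 0%), and the shares of miR-107-5p (p = 0.217), miR-26b-3p (p = 0.0991), miR-26a-1-3p (p = 0.219) and the miR-103 5p strands (p = 0.215) between groups did not pass exact permutation tests.

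**Figure D3:**
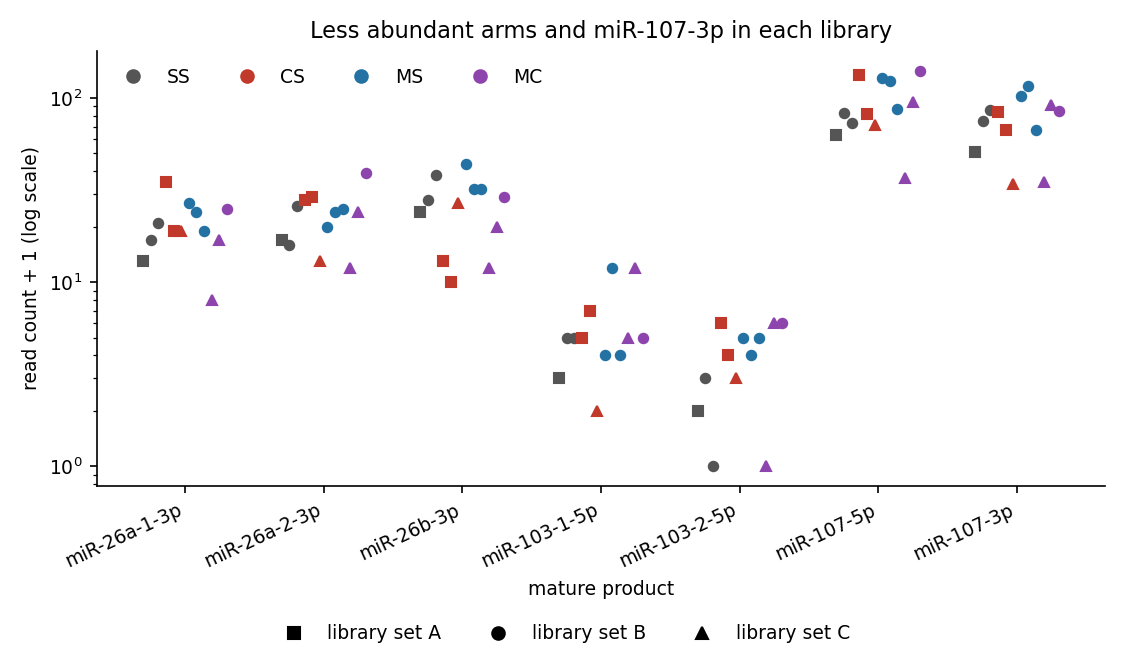
Reads of each less abundant strand and of miR-107-3p in each library (y axis, read count plus 1, log scale; x axis, mature product). Each point is a library, its colour the group and its shape the library set. miR-107-5p (36 to 140 reads) lies with miR-107-3p (33 to 115 reads) and above the 2 miR-103 5p strands (0 to 11 reads).

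The tables also list reads on precursor families, 1 row for the mir-26 family and 1 for mir-103 and mir-107 together. Which reads were put there rather than with the mature miRNA is not given in the sources used here. The mir-26 family row held 12.9, 11.6 and 11.5% of precursor plus mature miR-26 counts in the SS libraries. CS libraries had 15.6, 12.1 and 12.3%, MS libraries 15.9, 16.6 and 18.4%, and MC libraries 12.0, 14.1 and 13.8%. All 3 MS libraries lay above all 9 others. This share was examined after its values were seen, with 5 more ratios, and gave p = 0.0194 over the 4 groups by the exact permutation test, or 0.167 adjusted over all 9 ratios, and p = 0.0574 within library sets by the exact permutation test. The interaction of cocaine and methionine was -4.99 percentage points (exact permutation test with cocaine labels exchanged, 400 arrangements, p = 0.0200, adjusted p = 0.180 over 9 ratios). Exchanging these labels assumes no effect of cocaine with or without methionine, so this p does not isolate the interaction.

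Precursor rows of all families together moved in the same direction, at 11.3 to 12.4% of counts in SS and 14.3 to 15.8% in MS. CS libraries were at 11.5, 11.2 and 11.9%, and MC replicates 16, 17 and 20 at 9.84, 14.3 and 13.5%. As a share of all precursor rows the mir-26 row was at 4.49, 4.74 and 5.47% in SS and 5.15, 5.11 and 4.74% in MS, and these groups overlapped. For mir-103 and mir-107, the precursor row was 4.32 to 7.96% of precursor plus mature counts, and the 4 groups gave p = 0.552 by the exact permutation test.

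**Figure D4:**
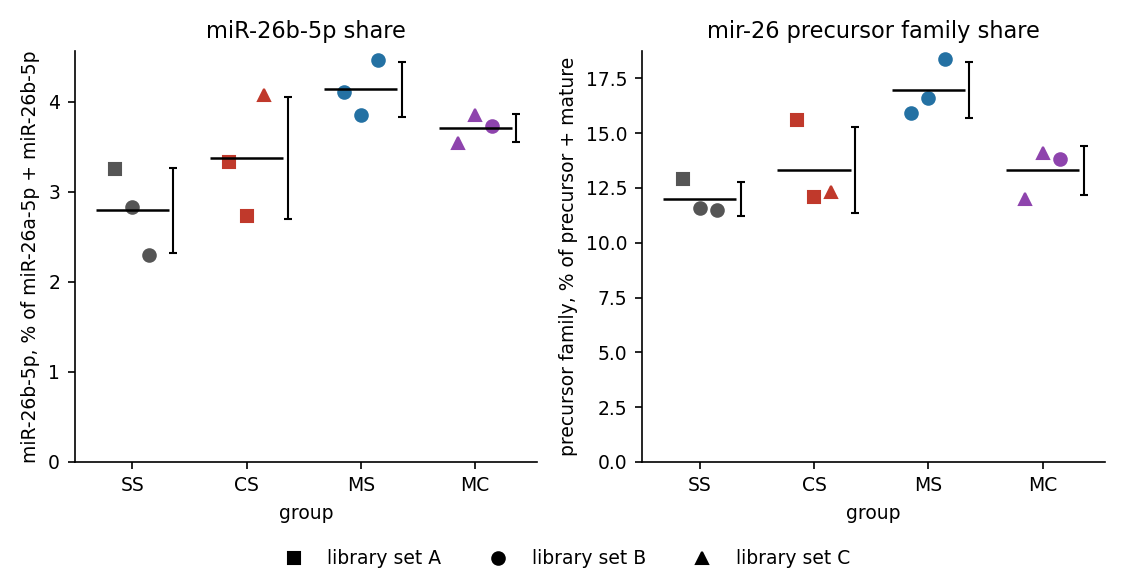
Left, miR-26b-5p as percent of miR-26a-5p plus miR-26b-5p counts, and right, the mir-26 precursor family as percent of precursor plus mature miR-26 counts (y axes, from 0), by group (x axes). Points are libraries with their library set as shape, bars means and whiskers SD. MS libraries lie at 3.85 to 4.46% on the left and 15.9 to 18.4% on the right, above all SS libraries (2.30 to 3.25% and 11.5 to 12.9%).

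How alike the members were across libraries was also described. The measure was Pearson's r of TMM-scaled log2 CPM over the 12 libraries, given as a description, since libraries share groups, sets and scaling. miR-26a-5p and miR-26b-5p had r = 0.38, and miR-103-3p and miR-107-3p r = 0.34. By likeness to miR-26a-5p, miR-26b-5p was at rank 64 of 174 mature miRNAs with a mean of at least 100 CPM. By likeness to miR-103-3p, miR-107-3p would be at rank 25 of 174, and miR-103-3p was at rank 29 of 175 for miR-107-3p. Closest to miR-26a-5p were let-7g-5p (r = 0.90), miR-9-5p (0.89) and miR-135b-5p (0.88), and to miR-26b-5p miR-340-5p (0.83), miR-384-3p (0.83) and miR-376c-3p (0.81). For miR-103-3p they were miR-93-5p (r = 0.84), miR-330-5p (0.75) and miR-187-3p (0.69), and for miR-107-3p miR-16-5p (0.87), miR-23b-3p (0.64) and miR-194-5p (0.62).

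miR-103 and miR-107 belong by sequence to a wider group with miR-15 and miR-16, which carry the 6 bases AGCAGC one base further in. The motif (as read on the miRNA strand) starts at base 1 in miR-103-3p and at base 2 in miR-16-5p, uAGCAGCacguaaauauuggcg, and it lies in the first 9 bases of 15 of 1679 mouse mature miRNAs (0.893%). Of the 7 other miRNAs of this group, 0 were called by edgeR in any comparison (background 0%). The most abundant of them was miR-16-5p (4766 CPM ± 1490, SD, n = 12) and the least miR-503-5p (2.05 CPM ± 0.745). Their median log2 fold change was -0.07 in CS vs SS, -0.04 in MS vs SS, -0.18 in MC vs CS and -0.21 in MC vs MS. At an unadjusted p under 0.05 there was 1, miR-195a-5p in MC vs CS (log2 fold change 0.95, SE 0.43, adjusted p = 0.577 by edgeR), or 14.3% of the list beside 7.44% of all 780.

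Of 24 other miRNAs carried in introns of protein-coding genes, 0 were called by edgeR in any comparison (background 0%). In MS vs SS 6 of them had an unadjusted p under 0.05, or 25.0% of the list beside 9.62% of all 780, and the median log2 fold change was 0.07 beside -0.03. The share under 0.05 was 4.17% beside 2.82% in CS vs SS and 8.33% beside 7.44% in MC vs CS. It was 8.33% beside 8.33% in MC vs MS and 8.33% beside 4.36% for the interaction. In MC vs MS the median of the 24 miRNAs was -0.18 beside 0.05 over all 780. Their levels ran from 15.6 CPM ± 7.99 for miR-106b-5p, carried by Mcm7, to 21728 CPM ± 3563 for miR-128-3p, carried by R3hdm1 and Arpp21 (SD, n = 12), so that miR-26a-5p lay above the whole list.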

How the data were processed

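Small RNA of 18 to 30 nt from PFC was read in 50-base single-end reads on BGISEQ-500. According to the methods, the authors removed reads under 16 nt, mapped with AASRA, and used Bowtie for piRBase with 1 mismatch allowed, and the submitters' processing notes name mm10. Deposited counts are raw reads per small RNA. TPM was computed by the authors as the count over the library total times 1000000, and it matched the deposited counts within 0.005. The tool that counted miRNAs is not given in the sources used here.

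Counts of 1422 mature and predicted miRNAs were tested with edgeR 4.0.16 in R 4.3.3 (TMM within miRNAs, library total as size, 8 residual degrees of freedom). DESeq2 1.42.0, other scalings, filters, a library set term and leaving out each library were alternatives. The fit was tested on simulated data. Ratios were tested by exact permutation with scipy 1.17.1. Libraries differed beyond counting error in all 66 pairs. The named miRNAs were the members, the other strands of their hairpins, 2 related lists and, for each member, the 3 mature miRNAs with the highest r (mean of at least 100 CPM, pseudocount 0.5). Members and lists were chosen with earlier results of these data known, and precursor and strand shares after their values were seen.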

Additional observations from a re-analysis of the deposited data

Results flagged for a closer look

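The share of the mir-26 precursor family in precursor plus mature miR-26 counts is listed for its interaction of cocaine and methionine, -4.99 percentage points, with 17.0% ± 1.30 in MS and 13.3% ± 1.16 in MC against 12.0% ± 0.788 in SS and 13.4% ± 1.97 in CS (SD, n = 3 each; exact permutation test p = 0.0200, adjusted over 9 ratios 0.180). It did not pass after adjustment, the exchange of cocaine labels does not isolate the interaction, and the ratio was chosen after its values were seen.

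For miR-103-3p every MS library lay above the SS mean and every MC library below the CS mean on the CPM scale. Methionine went with 179 CPM more without cocaine and -325 CPM with it, a difference of 504 CPM between the 2 effects. This difference in CPM was not tested, and it rests in large part on CS replicate 8 (1925 CPM), without which the values were -20.7 CPM with cocaine and 200 CPM for the difference. In the edgeR fit on TMM-scaled counts the interaction of miR-103-3p was -0.24 on the log2 scale (SE 0.33, adjusted p = 0.869). It was -0.661 without TMM factors, -0.097 with library set as a covariate and -0.018 without CS replicate 8.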

How the results depend on the processing

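No member was called in any of 21 settings (smallest adjusted p 0.210), so the sign changes below concern values that did not pass the test; apart from them, members kept their direction. The count of called miRNAs was 0 in edgeR, 19 (MS vs SS) and 12 (any difference) with DESeq2, which left 249 and 128 adjusted p as NA, 4 for MS vs SS with the libraries of those groups alone, and 0 to 3 for any difference when each library was left out, 3 without MC replicate 16. Without TMM factors, the log2 fold change was 0.151 for miR-26b-5p and 0.019 for miR-107-3p in CS vs SS, 0.253 for miR-103-3p in MS vs SS, and -0.227 for the interaction of miR-107-3p, with the median of all miRNAs moved by 0.27, 0.25 and -0.33. For miR-103-3p in MS vs SS (main value -0.00) it was 0.049 with TMM factors from all features, 0.065 with at least 10 counts, 0.018 with no filter and 0.101 with library set as a covariate. With that covariate it was 0.149 for miR-26a-5p in MC vs MS, -0.144 for miR-26b-5p in MC vs CS and 0.004 for miR-103-3p in MC vs CS. The cause of these changes was not tested. Leaving out each library in turn gave, in MC vs CS, -0.207 to 0.062 for miR-26a-5p and -0.063 to 0.236 for miR-26b-5p, and in MC vs MS -0.153 to 0.085 for miR-26a-5p and -0.139 to 0.010 for miR-103-3p. In CS vs SS it gave -0.045 to 0.319 for miR-103-3p, and in MS vs SS -0.132 to 0.060 for miR-103-3p and -0.018 to 0.239 for miR-107-3p. For the interaction it gave -0.204 to 0.100 for miR-26b-5p and -0.082 to 0.297 for miR-107-3p. The exact permutation p of the miR-26a-5p share ran from 0.00870 to 0.105 with 1 library left out, and was 0.0778 with labels exchanged within library sets, an alternative chosen after seeing the data. The other 2 ratios stayed above 0.05. No paired analysis was possible because the groups share no replicate numbers. Depth limits miR-107-3p (33 to 115 reads) and the passenger strands most.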
